A study of Mus musculus with 4 samples.

Results

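The klotho proteins and FGF receptors were described across adult mouse testis as 7 genes, taken by gene symbol from a deposited table of 25265 genes. They are Kl and Klb, the receptors Fgfr1, Fgfr2, Fgfr3 and Fgfr4, and the receptor-like gene Fgfrl1. All 7 symbols matched 1 row each, and all 7 genes passed the filter on low counts. Whole-testis RNA of C57BL/6 mice at postnatal day 56 was depleted of ribosomal RNA and sequenced in 2 libraries of the genotype labelled control and 2 labelled Ythdf2-vKO. The series title describes a germ cell-specific Ythdf2 mutant; the labels name neither the Cre driver nor the deleted segment, and they do not say whether each library came from its own animal, so p-values measure the spread between these libraries. YTHDF2 is a cytoplasmic protein that binds N6-methyladenosine (m6A) in RNA and promotes decay of the bound transcript. The family was chosen because Kl was among the genes called lower in the vKO-labelled libraries, so its change is given as a description and not as a test.

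FGFs are secreted ligands that bind receptor tyrosine kinases together with heparan sulfate, and the activated receptors signal through the adaptor FRS2 to the RAS-MAPK cascade. The endocrine FGFs bind heparan sulfate weakly and need a klotho protein as co-receptor: α-Klotho, the product of Kl, serves FGF23 in phosphate and vitamin D control, and β-Klotho, the product of Klb, serves FGF21 and FGF15. In the gonad, FGF9 acting through FGFR2 is known for driving Sertoli cell fate in the fetus, FGF2 supports spermatogonial stem cells in culture, and male mice without Kl are infertile.

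The targeted gene Ythdf2 had 1193 and 1604 counts in control against 1774 and 1807 in the vKO-labelled libraries, a log2 fold change of 0.35 (SE 0.13, edgeR adjusted p 0.238). The counts do not show a loss of the transcript, so directions below are those of the vKO-labelled libraries. Total gene counts ran from 24862518 to 29561182 per library. Testis markers were present, with summed levels of 10600 to 13430 CPM (a gene's count relative to the TMM-scaled library size) for 9 elongating spermatid genes and 1068 to 1519 CPM for 12 Sertoli cell genes. Sertoli genes had positive log2 fold changes in 12 of 12 cases (median 0.39; Wt1 called, named after its value had been seen), spermatogonia genes in 10 of 10 (0.36, 0 called), Leydig genes in 7 of 8 (0.38, 0 called) and endothelial genes in 5 of 6 (0.40, 0 called). Over all 21132 genes tested, 10632 had positive log2 fold changes and 0.393% were called. Elongating spermatid genes had positive log2 fold changes in 1 of 9 cases (median -0.25, 0 called) and spermatocyte genes in 3 of 11 (-0.13, 0 called). Round spermatid genes (median -0.02, 4 of 9 higher) and peritubular myoid genes (-0.05, 2 of 6 higher) had no called member. Control library 1 stood apart in macrophage genes, with a median deviation of -0.78 on the log2 scale from the mean of the 4 libraries, against 0.14 in control library 2 and 0.16 and 0.13 in the vKO-labelled libraries. Control library 2 stood apart with GC content: across 17817 genes its deviations had a Spearman correlation of -0.406 with GC content, against 0.025 in control library 1 and 0.258 and 0.194 in the vKO-labelled libraries, and genes are not independent replicates.

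The transcripts were first searched for GGACT, the most common core of the m6A consensus, on the transcript strand only. It is shown because the study concerns an m6A reader; a match is a description and not a methylated site. In the longest complete coding transcript of GENCODE M21, Kl held 6 matches, with 3 in the coding sequence and 3 in the 3′ UTR. Klb held 7, all in the coding sequence. Fgfr1 held 8, Fgfr2 and Fgfr3 5 each, and Fgfr4 and Fgfrl1 3 each. The match nearest to the stop codon of each gene is printed 5′ to 3′ with its neighbouring bases, the capitals marking the motif.
Kl: acaactttagGGACTtgtttatcca
Klb: gggagttgggGGACTtggtgaagct
Fgfr1: tgccaacagtGGACTcaaacggcgc
Fgfr2: tgccccagttGGACTcaaggcagac
Fgfr3: tgcacaacctGGACTactacaagaa
Fgfr4: ccttgcccttGGACTcatcctcaga
Fgfrl1: tgggacacagGGACTctggccttcc

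In GRCm38, 4 of the 7 genes lie on chromosome 5: Kl, Klb (65348314 to 65384007), Fgfr3 (33721674 to 33737068) and Fgfrl1 (108692382 to 108706924), all on the plus strand. Fgfr1 lies on chromosome 8 (25513654 to 25575718) and Fgfr4 on chromosome 13 (55152640 to 55168759), also on the plus strand, and Fgfr2 on the minus strand of chromosome 7. The printed motifs lie at chr5:150992170-150992174 on the plus strand for Kl, in the 3′ UTR and 315 nt after the stop codon, and at chr5:65379368-65379372 (plus) for Klb, in the coding sequence. The Fgfr1 motif, at chr8:25573904-25573908 (plus), is in the last codons of the coding sequence, and that of Fgfr3, at chr5:33734445-33734449 (plus), is also coding. Those of Fgfr2 (chr7:130163676-130163680, minus), Fgfr4 (chr13:55168438-55168442, plus) and Fgfrl1 (chr5:108706786-108706790, plus) are in the 3′ UTR, between 262 and 440 nt after the stop codon. Of 15780 coding genes tested, 91.1% held the motif at least once, so its presence is common to most of them. Per kilobase of that transcript, Klb had 1.98 matches and stood at percentile 87.9 of the coding genes tested, Fgfr1 had 1.59 (percentile 77.3), Kl 1.17 (58.0) and Fgfr4 0.902 (41.0). The median was 1.05 matches per kilobase. These places depend on the stretch searched. In the 3′ UTR alone Fgfr4 was at percentile 97.5, while Klb and Fgfr1 held no match. For Kl, the longest annotated transcript, a retained-intron form, held 0.343 matches per kilobase, at percentile 17.2 of all genes tested.

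Kl had 73 and 85 counts in the control libraries against 25 and 21 in the vKO-labelled libraries. On the CPM scale its levels were 3.12 and 2.84 against 0.934 and 0.778. Both vKO-labelled libraries lay far below both control libraries, and the gap was wider than the spread within either group. The fitted log2 fold change was -1.79 (SE 0.35, 95% interval -2.54 to -1.04), a level 3.46-fold lower. This value chose the family, and with rank 77 by p-value among 83 called genes it lay near the threshold, at an edgeR adjusted p of 0.0492. Without replicate 1 of the vKO-labelled libraries the edgeR adjusted p was 0.132 and without replicate 2 it was 0.116, so that in both cases it was no longer called; DESeq2 size factors (edgeR adjusted p 0.0504) and a fit without robust estimation (0.0539) also ended the call. The log2 fold change kept its direction in all 14 alternatives, between -1.93 and -1.67. With counts of 21 to 85, counting error alone gives a standard deviation of 10.8% to 21.8% of a library's value, and reads carry no molecular identifiers, so this covers counting error only. In the authors' deposited table the log2 fold change of Kl was -1.80 (SE 0.47, adjusted p 0.0191); it was the only one of the 7 with an adjusted p under 0.05 in the authors' deposited table, where 1.32% of 16448 genes passed.

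Kl (chromosome 5, 150952607 to 150993817, plus strand) shares its exons with no other annotated gene. Its GC content was 48.1%, against a median of 48.9% for the genes tested, and with an offset for GC content its log2 fold change was -1.78. Elongating spermatid markers summed to 13430 and 11160 CPM in control against 10600 and 10770 CPM in the vKO-labelled libraries. Unlike for Kl, control library 2 lay closer to the vKO-labelled libraries than to control library 1. The part of these markers in the result was not tested. In whole-testis RNA, fewer cells of a type and less RNA per cell cannot be told apart. The kidney is the main site of Kl expression, and a list of 6 kidney tubule markers was measured beside it. Umod, Slc22a6 and Calb1 have no row in the table, and the other 3 summed to 5.82 and 8.51 CPM in control against 11.4 and 12.4 CPM in the vKO-labelled libraries. Aqp2 carried that difference (2.995 and 4.70 CPM against 6.95 and 9.49 CPM), while Slc12a1 had a log2 fold change of -0.16 and Slc12a3 overlapped between the groups; none of the 3 was called, and their part in the result was not tested. Markers of epididymis, rete testis and efferent duct that have a row summed to 30.03 and 26.9 CPM in control against 22.9 and 23.1 CPM in the vKO-labelled libraries. The whole list has 12 markers, of which Lcn8, Lcn9 and Pax8 have no row. In all 6 were tested, 2 of them had positive log2 fold changes and 0 were called. Their part was not tested.

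**Figure D1:**
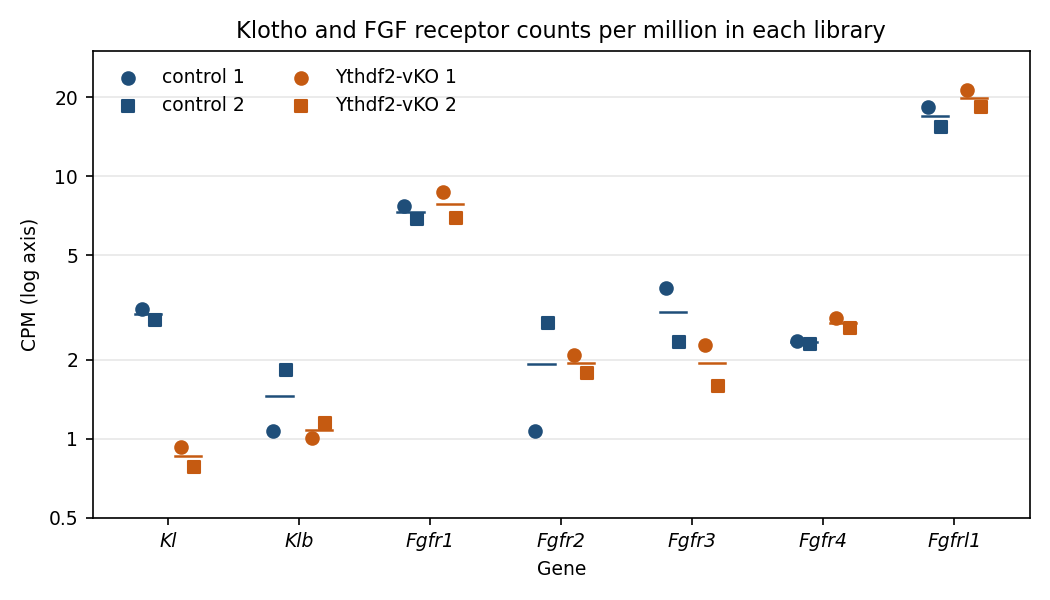
Level of each gene in CPM on a log axis, with 1 point per library (circles, replicate 1; squares, replicate 2) and short lines at the mean of each group. Kl is the gene with a wide gap between the groups (0.778 and 0.934 against 2.84 and 3.12 CPM), while the control points of Fgfr2 (1.07 and 2.77 CPM) lie on either side of the vKO-labelled libraries.

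Klb, the other klotho co-receptor, had 25 and 55 counts in control against 27 and 31 in the vKO-labelled libraries, or 1.07 and 1.83 CPM against 1.01 and 1.15 CPM. The groups overlapped, since control library 1 was as low as the vKO-labelled libraries. Its log2 fold change was -0.44 (SE 0.42, 95% interval -1.34 to 0.46; edgeR adjusted p 0.699), which leaves room for a fall as well as for a rise. Without control replicate 2 the log2 fold change was 0.01, and without control replicate 1 it was -0.77. Klb has no adjusted p in the authors' deposited table. The ratio of Kl to Klb counts was 2.92 and 1.54 in control against 0.926 and 0.677 in the vKO-labelled libraries. More reads thus came from Kl than from Klb in both control libraries and fewer in both vKO-labelled libraries, a description that rests on the contrast that chose Kl. The Kl transcript is the longer one. Per kilobase of the longest coding transcript the ratio was 2.02 and 1.07 in control against 0.640 and 0.469 in the vKO-labelled libraries. On that scale Kl and Klb were nearly equal in control library 2.

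Of the 7 genes, 1 (Kl) was called at an edgeR adjusted p under 0.05, against 0.393% of the 21132 genes tested (0.114% lower and 0.279% higher in the vKO-labelled libraries); nothing is read from this count, since Kl was chosen by it. The split over all genes, 59 higher and 24 lower, became 181 and 37 with library totals alone and 79 and 66 with an offset for GC content. Kl was also the only one of the 7 with an unadjusted p under 0.05, against 14.1% of genes tested. The groups did not overlap in Kl, Fgfr3 and Fgfr4, 3 of 7, against 45.3% of genes tested. The median log2 fold change was -0.0097 over the 7 genes and 0.0027 over all genes tested.

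**Figure D2:**
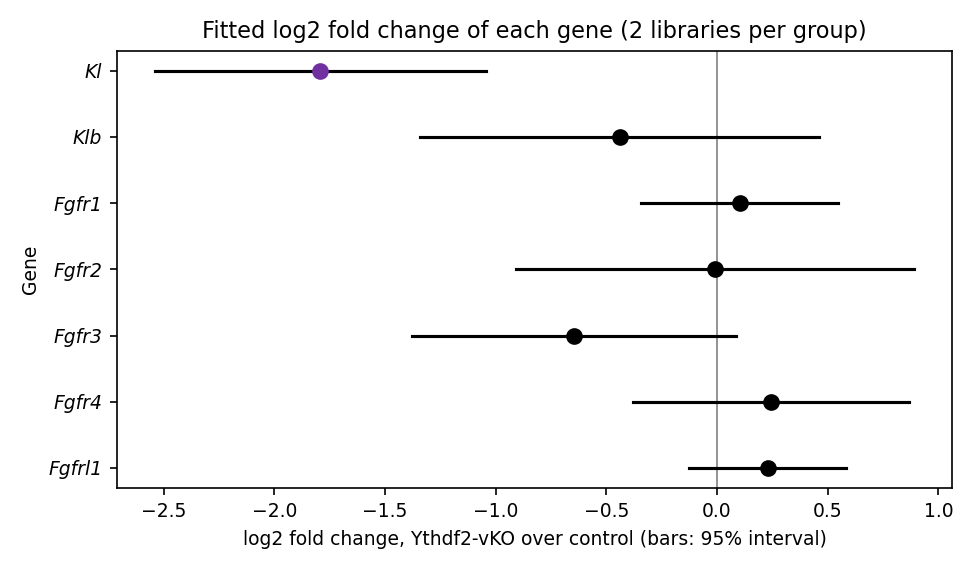
Fitted log2 fold change of each gene, libraries labelled Ythdf2-vKO over control, with its 95% interval from edgeR (2 libraries per group). The interval of Kl, the gene that chose the family (purple, -2.54 to -1.04), lies below 0, and those of the other 6 genes include 0.

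Fgfr1 encodes the receptor through which α-Klotho and FGF23 mainly act. It had 180 and 206 counts in control against 233 and 187 in the vKO-labelled libraries, or 7.70 and 6.87 CPM against 8.70 and 6.93 CPM. The groups overlapped, and replicate 1 was the higher library in both. The log2 fold change was 0.10 (SE 0.21, 95% interval -0.34 to 0.55; edgeR adjusted p 0.879). It was -0.03 with the GC offset, so that no direction is given; the GC content of Fgfr1 was 55.4%. On 164 of its 9875 exonic nt Fgfr1 overlaps the antisense gene Gm16159, which had 700 to 1062 counts per library. Whether strand was used in counting is not given in the sources used here, and reads from this stretch cannot be assigned.

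Fgfr2, the receptor of FGF9 in the fetal gonad and of FGF10 in epithelia, varied most between the control libraries. Its counts were 25 and 83 in control against 56 and 48 in the vKO-labelled libraries, or 1.07 and 2.77 CPM against 2.09 and 1.78 CPM. The vKO-labelled libraries lay between the control libraries, which differed 2.59-fold. Among all genes tested, this difference between the controls was at percentile 98.7 of absolute size. The group means were 1.92 ± 1.201 and 1.94 ± 0.221 CPM (SD, n = 2 each). This gave a log2 fold change of -0.0097 (SE 0.41, 95% interval -0.91 to 0.89; edgeR adjusted p 0.995), which was 0.85 without control replicate 2 and -0.52 without control replicate 1. Macrophage markers were also low in control library 1, summing to 44.3 CPM there against 59.6 to 73.0 CPM in the other 3 libraries. Peritubular myoid markers had median deviations of -0.38 in control library 1 and 0.32 in control library 2, against 0.15 and -0.19 in the vKO-labelled libraries. The part of both lists in the value of Fgfr2 was not tested. The annotated Fgfr2 gene (chromosome 7, 130162451 to 133123350, minus strand) shares 314 of its 10328 exonic nt with Ctbp2 on the same strand. Ctbp2 had 1298 to 1337 counts per library, and reads from the shared stretch cannot be assigned.

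Fgfr3, known as a surface marker of undifferentiated spermatogonia in human testis, had 88 and 70 counts in control against 61 and 43 in the vKO-labelled libraries. Its levels were 3.77 and 2.33 CPM against 2.28 and 1.59 CPM. The groups did not overlap, but the lower control library and the higher vKO-labelled library were almost equal. The log2 fold change was -0.64 (SE 0.34, 95% interval -1.38 to 0.09), at an edgeR unadjusted p of 0.079 and an adjusted p of 0.425. It did not pass the threshold, and it ran from -0.96 to -0.28 over the 14 alternatives. Spermatogonia markers, of which 0 of 10 were called, had a median log2 fold change of 0.36, and their part in the value of Fgfr3 was not tested. The gene G630022F23Rik overlaps 998 of the 7158 exonic nt of Fgfr3 on the other strand and had 32 to 50 counts per library. A stretch of 497 nt of the Fgfr3 transcript is 92.0% identical to a transcript of Nvl, so that the counts of Fgfr3 are uncertain in both places.

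Fgfr4, the receptor that pairs with β-Klotho in the liver, differed least within groups. It had 55 and 69 counts in control against 77 and 71 in the vKO-labelled libraries. Its levels were 2.35 and 2.30 CPM against 2.88 and 2.63 CPM, so that both vKO-labelled libraries were above both controls. The log2 fold change was 0.24 (SE 0.29, 95% interval -0.38 to 0.87; edgeR adjusted p 0.771). With the GC offset it was 0.04; its GC content of 58.8% was at percentile 93.6 of the genes tested.

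Fgfrl1 encodes a receptor-like protein that binds FGFs and heparin but has no intracellular kinase domain. It was counted at 429 and 463 reads in control against 569 and 493 in the vKO-labelled libraries, or 18.4 and 15.4 CPM against 21.3 and 18.3 CPM. Control library 1 and replicate 2 of the vKO-labelled libraries were nearly equal, so the groups overlapped. The log2 fold change was 0.23 (SE 0.16, 95% interval -0.13 to 0.58; edgeR adjusted p 0.584), and 0.05 with the GC offset at a GC content of 57.8%.

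**Figure D3:**
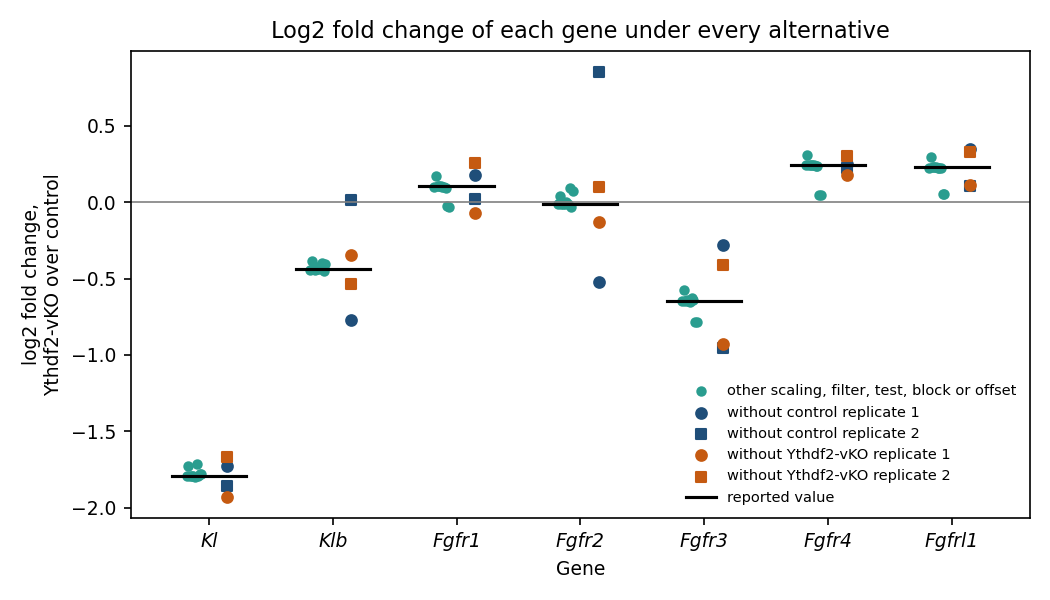
Log2 fold change of each gene under each of 14 alternatives, with leave-one-out fits as blue (control left out) and orange (Ythdf2-vKO left out) points and the reported value as a black line. Kl stays between -1.93 and -1.67, and Fgfr2 runs from -0.52 to 0.85 with the control library left out.

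Levels of different genes were compared per kilobase of the longest annotated transcript, as CPM per kb. Fgfrl1 was highest, at 7.26 ± 0.883 in control and 8.49 ± 0.905 in the vKO-labelled libraries (SD, n = 2 each). Fgfr1 followed with 1.45 ± 0.116 and 1.55 ± 0.249, and on this length it lay below Fgfrl1 and above the other 5 genes in every library. In control, Fgfr3 (0.719 ± 0.238), Fgfr4 (0.700 ± 0.0109), Kl (0.511 ± 0.0349), Fgfr2 (0.433 ± 0.271) and Klb (0.410 ± 0.153) came next. Neighbours in that order did not differ beyond their spread, except that both control libraries had more Fgfr4 than Kl. In the vKO-labelled libraries the order was Fgfr4 (0.829 ± 0.0521), Fgfr3 (0.456 ± 0.114), Fgfr2 (0.437 ± 0.0499), Klb (0.305 ± 0.028) and Kl (0.147 ± 0.0189). There, Fgfr4 was above Fgfr3, Fgfr2 above Klb and Klb above Kl in both libraries, and Fgfr2 lay within the range of Fgfr3. The longest transcript of Kl, at 5828 nt, is a retained-intron form, and its longest coding transcript has 5118 nt, which would raise its values slightly. That of Fgfr2, at 4429 nt, is annotated as a nonsense-mediated decay form, and its longest coding transcript has 4311 nt.

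The mix of the kinase-bearing receptors was then expressed as each receptor's share of the summed CPM per kb of Fgfr1 to Fgfr4, a sum of 3.36 and 3.23 in control against 3.60 and 2.94 in the vKO-labelled libraries. With the longest annotated transcript as length, Fgfr1 made up the largest share in each library. It was at 45.4% and 42.2% in control and 48.0% and 46.7% in the vKO-labelled libraries. Fgfr4 made up 21.0% and 21.4% against 24.0% and 26.9%, a difference of 4.22 percentage points, which was 2.79 without replicate 2 of the vKO-labelled libraries. Fgfr3 made up 26.4% and 17.0% against 14.9% and 12.8%, a difference of means of -7.86 percentage points, which was -3.19 without control replicate 1 and -12.5 without control replicate 2. Fgfr2 made up 7.18% and 19.4% against 13.1% and 13.6%. The groups did not overlap for Fgfr1, Fgfr3 and Fgfr4, and a two-sided exact permutation test gave p = 0.333 for each of them, the smallest that 2 libraries against 2 allow; it gave p = 1.0 for Fgfr2. Shares sum to a fixed total, so they do not move independently. Fgfrl1 was 2.34 and 2.05 times the sum of the 4 receptors in control against 2.54 and 2.67 times in the vKO-labelled libraries.

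**Figure D4:**
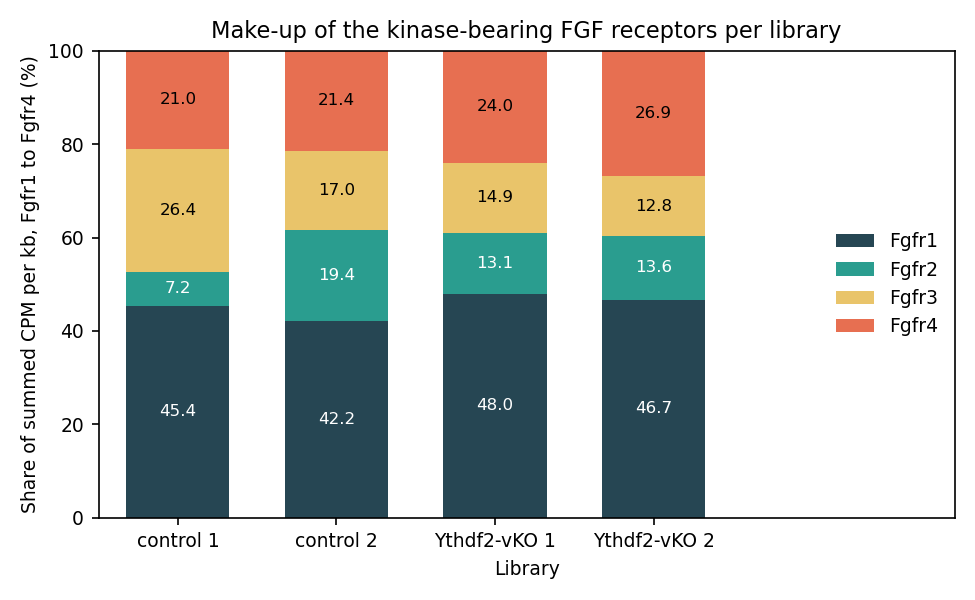
Share of each receptor in the summed CPM per kb of Fgfr1 to Fgfr4, in percent, with 1 bar per library and the longest annotated transcript as length. Fgfr1 is the largest part in each bar (42.2% to 48.0%), and the share of Fgfr2 differs between the control libraries (7.18% and 19.4%).

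The genes around the receptors were taken from 12 lists of 113 genes, of which 102 had a row and 90 were tested. By edgeR, 1 of the 90 was called, higher in the vKO-labelled libraries, and 0 were called lower, against 0.279% and 0.114% of all genes tested. Without a library the number called was 7 (control replicate 1), 4 (control replicate 2), 0 (replicate 1 of the vKO-labelled libraries) and 1 (replicate 2). In these fits 6.82%, 4.93%, 0.16% and 0.446% of all genes were called, in the same order. At an unadjusted p under 0.05 there were 12 of 90, 11 higher and 1 lower, and the share for all genes was 14.1%. The median log2 fold change was 0.06. Genes named below for an unadjusted p were chosen after their values had been seen.

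Several ligand genes had no row or fell under the filter on low counts. Of the endocrine FGFs only Fgf21 was tested, with 31 and 47 counts in control against 50 and 44 in the vKO-labelled libraries (log2 fold change 0.27, SE 0.36, edgeR adjusted p 0.80); Fgf23, the ligand of α-Klotho, and Fgf15 have no row in the table. Of 15 paracrine FGFs, 6 were tested and 0 had an unadjusted p under 0.05. Fgf20 had the highest level per kilobase, with 123 and 129 counts in control against 128 and 117 in the vKO-labelled libraries (log2 fold change -0.07, SE 0.24). Its level was 3.24 CPM per kb in control and 3.09 in the vKO-labelled libraries, above that of Fgfr1 (1.45 and 1.55). Fgf2 had a log2 fold change of -0.34 (SE 0.36, edgeR adjusted p 0.737), the largest in size among those of at least 1 CPM. Fgf9 had 3 to 7 counts per library and fell under the filter. The 4 intracellular FGFs, which act on ion channels and not through these receptors, were all tested and had a median of -0.33, with -0.40 (SE 0.20) for Fgf12 and -0.37 (SE 0.19) for Fgf14, both with an edgeR adjusted p above the threshold (0.39 and 0.41). Without control replicate 1 they were -0.25 and -0.57, and without control replicate 2 they were -0.54 and -0.15. Of 9 genes for FGF-binding proteins and membrane partners of the receptors, 5 were tested and 0 had an unadjusted p under 0.05; Cdh2, which encodes N-cadherin, a partner of FGFR1, had -0.21 (edgeR adjusted p 0.559), and -0.37 and -0.03 without control replicates 1 and 2.

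Heparan sulfate proteoglycans, the co-receptors that hold FGFs at the cell surface, contained the called gene. Gpc4, a glypican anchored in the membrane by a lipid, had 199 and 291 counts in control against 577 and 486 in the vKO-labelled libraries, or 8.51 and 9.71 CPM against 21.6 and 18.01 CPM. Both vKO-labelled libraries were well above both controls. Gpc4 rose by a log2 fold change of 1.12 (SE 0.17, edgeR adjusted p 0.0202), 2.17-fold, and without replicate 1 of the vKO-labelled libraries its edgeR adjusted p was 0.105, no longer called. Of the 11 proteoglycans tested, 9 had positive log2 fold changes and the median was 0.44. At an unadjusted p under 0.05 there were 5, all higher: Gpc4, Gpc1 (0.74), Agrn (0.57), Hspg2 (0.48) and Sdc4 (0.33, the highest level per kilobase). Over all genes, 1616 of 21132 were higher at that threshold and 14.1% passed it in either direction. Sertoli cell markers moved in the same direction, with summed levels of 1068 and 1116 CPM in control against 1519 and 1333 CPM in the vKO-labelled libraries. Spermatogonia, Leydig and endothelial markers also had positive median log2 fold changes (0.36, 0.38 and 0.40). The part of these lists was not tested. Enzymes that build or trim heparan sulfate had a median of 0.09 over 11 genes, with an unadjusted p under 0.05 for Hs6st1 (0.60) and Sulf2 (0.52). Ndst2, the most abundant of them per kilobase, had 875 and 860 counts in control against 971 and 994 in the vKO-labelled libraries. Hs6st2 had 23 and 72 counts in control against 24 and 27 in the vKO-labelled libraries, so that control library 2 alone was high.

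**Figure D5:**
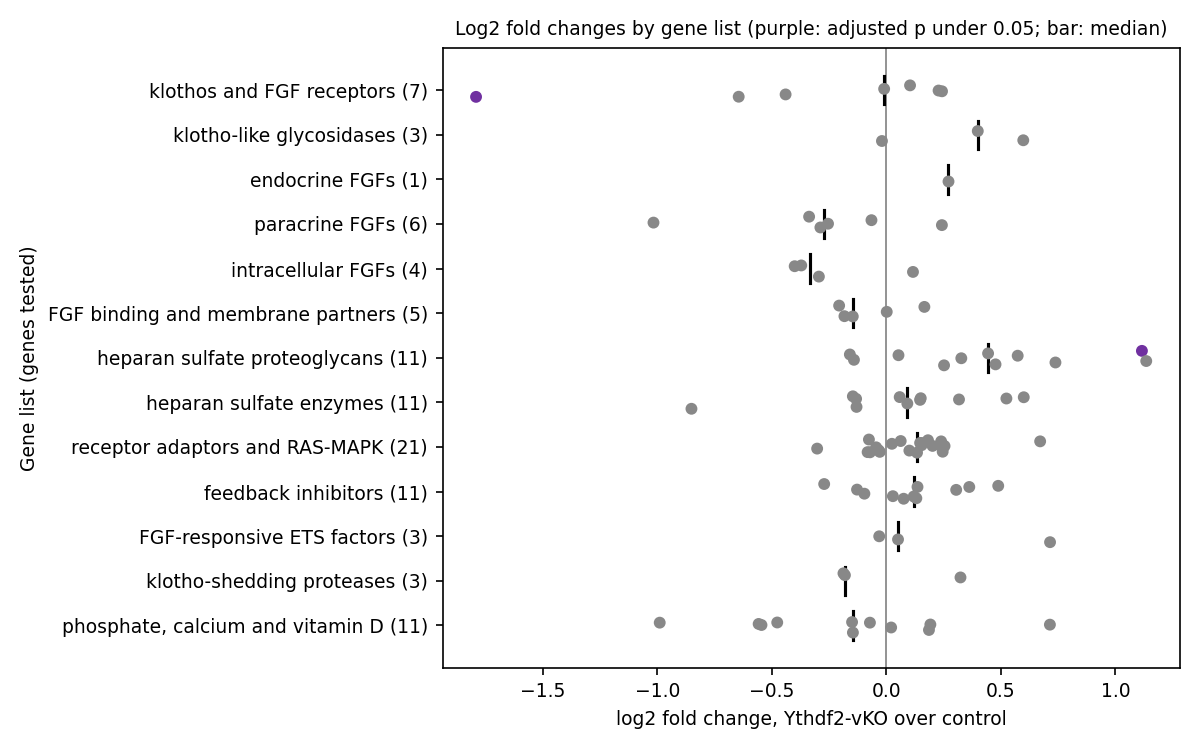
Log2 fold change of every tested gene in the klotho and FGF receptor family and in 12 lists of related genes, libraries labelled Ythdf2-vKO over control. Purple points have an edgeR adjusted p under 0.05 (Kl at -1.79 and Gpc4 at 1.12), and black bars mark list medians, highest for the proteoglycans at 0.44.

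Downstream of the receptors, none of the 21 adaptor and RAS-MAPK genes, 11 feedback inhibitors and 3 ETS factors was called by edgeR, with 1 gene in each list at an unadjusted p under 0.05. Grb2, the adaptor that links FRS2 to SOS, had 242 and 310 counts in control against 433 and 453 in the vKO-labelled libraries. Its CPM were 10.4 and 10.3 against 16.2 and 16.8, without overlap, and its log2 fold change was 0.67 (SE 0.16, edgeR adjusted p 0.105). When each library was left out, the log2 fold change of Grb2 ran from 0.64 to 0.70. Mapk3, which encodes the kinase ERK1, had the highest level per kilobase of its list and a log2 fold change of -0.07 (SE 0.13). Among the feedback inhibitors, some of which are induced by FGF signals, Spred2 had 0.49 (SE 0.23, edgeR adjusted p 0.354). Cbl, the most abundant per kilobase, had 0.08 (SE 0.14). Of the 11 inhibitors, 8 had positive and 3 negative log2 fold changes, and the median was 0.12. Etv5, an ETS factor needed to maintain spermatogonial stem cells, had 0.05 (SE 0.16), and Etv1 had 0.71 (SE 0.23, edgeR adjusted p 0.196).

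Genes tied to the hormonal role of klotho gave 0 calls. Of 16 genes of phosphate, calcium and vitamin D handling, 11 were tested, with a median log2 fold change of -0.15 and an unadjusted p under 0.05 for 1 gene. That gene was Slc34a2, a sodium-phosphate cotransporter, with 85.4 and 57.9 CPM in control against 55.1 and 47.8 CPM in the vKO-labelled libraries. The lower control library and the higher vKO-labelled library were close. Its log2 fold change was -0.48 (SE 0.18, edgeR adjusted p 0.256). Galnt3, which glycosylates FGF23, had the highest level per kilobase and a log2 fold change of -0.15 (SE 0.12). Fam20c, a secretory kinase, had 8 and 53 counts in control against 48 in each vKO-labelled library, so that control library 1 alone was low. Its log2 fold change was 0.71 (SE 0.57), and it ran from 0.0078 to 2.37 when each library was left out. The proteases that cut klotho from the cell surface were Adam10 (0.32, SE 0.16), Adam17 (-0.19, SE 0.15) and Bace1 (-0.18, SE 0.45), none of them called. Of a list of glycosidases that holds the klotho relatives Lct and Lctl, Lct had 0.60 (SE 0.34) and Gba2 -0.02 (SE 0.13), and Lctl has no row.

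Of 17826 other tested genes with a mean of at least 1 CPM, the 5 whose pattern over the 4 libraries was nearest to that of Kl were E330035G20Rik, Dab1, Kcnc2, Gm43101 and Npnt. Likeness was the Euclidean distance between log2 CPM centred on each gene's mean, and the distances ran from 0.12 to 0.25. Dab1, an adaptor of the reelin pathway, had 74 and 105 counts in control against 33 and 26 in the vKO-labelled libraries. Kcnc2, a potassium channel subunit, had 128 and 144 against 53 and 35, and Npnt, an extracellular matrix protein, had 61 and 65 against 25 and 19. These patterns were selected for their likeness over 4 libraries and carry no test.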

How the data were processed

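The authors deposited raw read counts per gene for 4 testis libraries. They also deposited a mean normalized count (a signal), a test statistic (a score), p-values, and log2 fold changes with errors, under DESeq2's usual column names, per the file headers. HISAT2 2.1.0 and HTSeq 0.6.1p1 are named in the submitters' processing notes; the build and strand setting are not given in the sources used here. Counts were tested with edgeR 4.0.16 (limma 3.58.1, R 4.3.3): TMM scaling, filterByExpr, robust quasi-likelihood fit of genotype alone, prior count 0.125, two-sided, Benjamini-Hochberg over 21132 genes, with 0.05 as the threshold for a call. Standard errors are the absolute log2 fold change divided by the square root of F. DESeq2 1.42.0 was an alternative. The fit was run on simulated counts with the same spread for every gene, a check of the code that does not cover the spread of these libraries. Replicates differed by more than sampling noise (chi-square per degree of freedom 19.4 in control, 7.84 in vKO). Gene models, coordinates and transcript sequences are GENCODE M21 (GRCm38), joined by Ensembl identifier; the authors' build may differ. Named genes are Ythdf2, the 7 genes, called genes of the lists, each list's highest level per kilobase and largest log2 fold change of at least 1 CPM, and the 5 nearest to Kl (log2 of CPM + 0.5). The family and lists were chosen with earlier results of these data known. Alternatives were scaling, filter, test, prior, GC offset, replicate block and leaving out each library. Protein sequences were not used here. A gene of the lists is not reported here.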

Additional observations from a re-analysis of the deposited data

How the results depend on the processing

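The number of the 7 genes called was 1, and it was 0 with DESeq2 size factors and without robust estimation, and 0 to 1 when each library was left out; these fits leave 1 library in a group, which is assumed to vary like the other group. The number of related genes called was 1, and it was 5 with the replicate block, 3 with the GC offset and replicate block, and 0 to 7 when each library was left out. Both groups use replicate numbers 1 and 2 with no stated meaning. Deviations from the group means correlated at 0.108 between the libraries numbered 1. With 2 libraries per group, those numbered 2 give the same value by construction. The numbers were not taken as pairing. Over all genes the replicate block moved the calls from 59 higher and 24 lower to 627 and 390, the GC offset to 79 and 66, both together to 256 and 305, library totals alone to 181 and 37, and the DESeq2 Wald test to 138 and 80. They were 1048 and 464 without control replicate 1, 554 and 523 without control replicate 2, and 30 and 5 without Ythdf2-vKO replicate 1. Signs turned for values near 0. Fgfr2 was 0.0378 with library totals alone, 0.10 with the replicate block and 0.0752 with the GC offset and replicate block. With the GC offset alone Fgfr1 was -0.0259 and Etv5 -0.0009, and with the replicate block added they were -0.0332 and -0.0028. With library totals alone Gba2 was 0.0504 and Fgf20 0.0033. When each library was left out, the log2 fold changes ran from -0.77 to 0.0138 for Klb, -0.0701 to 0.26 for Fgfr1, -0.52 to 0.85 for Fgfr2, -0.13 to 0.10 for Gba2, -0.21 to 0.0761 for Fgf20, -0.19 to 0.0541 for Mapk3, -0.0331 to 0.34 for Ndst2, -0.10 to 0.27 for Cbl and -0.036 to 0.13 for Etv5. Grb2 was called with the replicate block (edgeR adjusted p 0.0146) and with the GC offset added (0.0398). Ythdf2 was called, higher, with GC offset plus replicate block (0.39, edgeR adjusted p 0.0455). The Fgfr4 share difference of 4.22 percentage points became 5.76 with the union of exons as length. On that length Fgfr4 (40.4%) and not Fgfr1 (38.15%) made up the largest share in replicate 2 of the vKO-labelled libraries. The percentile of Kl for GGACT per kilobase was 17.2 on its longest annotated transcript, a retained-intron form, 75.8 in the 3′ UTR alone, 18.5 with the wider consensus known as DRACH and 58.0 on the longest coding transcript, a choice made after seeing the data. The cause of these moves was not tested. At 21 to 88 counts per library for Kl, Klb, Fgfr2, Fgfr3 and Fgfr4, counting error alone was 10.7% to 21.8% of a value.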
